A study of Mus musculus with 6 samples.

Results

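The mitochondrial protein import machinery was described through 39 nuclear genes, named by symbol as components of the translocases, sorting complexes, chaperones and peptidases that bring proteins into mitochondria, among 24984 genes listed in the count files. All 39 symbols were present, and all 39 passed the filter on low counts. RNA sequencing libraries came from the inguinal white adipose tissue (fat under the skin of the groin) of mice, with 3 libraries labelled Mpst knockout and 3 labelled wild type (WT), and both groups were on a high-fat diet (HFD). Age, sex, the length of the diet and the design of the knockout allele were not stated in the labels. Nor do the labels call the replicates separate animals, so each p-value reflects how far these samples vary, and that variation may be technical. MPST is a sulfurtransferase of the cytosol and mitochondria that forms hydrogen sulfide, and the study's title ties it to mitochondrial protein import. Transcript levels do not measure import itself.

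Nearly all mitochondrial proteins are made in the cytosol and cross the outer membrane through the TOM complex. From there, beta-barrel proteins pass to the SAM complex, carriers go with small TIM chaperones to the TIM22 complex, and proteins with a cleavable presequence go through TIM23, pulled inward by the PAM motor and trimmed by peptidases. Small cysteine-rich proteins are folded in the intermembrane space by the MIA disulfide relay, and OXA1L inserts proteins into the inner membrane from the matrix. In fat, this traffic supplies the enzymes of fatty acid oxidation, the citric acid cycle and respiration.

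Mpst, the deleted gene, had 3, 10 and 9 counts in the 3 knockout libraries, against 1358, 1394 and 1624 counts in the 3 WT libraries, so every library matched its label. Counts in genes per library ranged from 8054560 in knockout replicate 1 to 22458630 in knockout replicate 2, and the lowest count of any import gene in any library was 55. The adipocyte list of 10 markers had a summed level of 38934 to 47852 CPM (a gene's counts relative to its library's scaled total) in knockout libraries, against 58728 to 69279 CPM in WT libraries, with no marker at 0, and 3 of the 10 fell. The macrophage list of 10 markers summed to 1693 to 1795 CPM in knockout libraries, against 492 to 992 CPM in WT libraries, with no marker at 0, and 7 rose. Skeletal muscle markers (14 genes, none at 0, none called) summed to 60.2, 49.7 and 2667 CPM in knockout replicates 1, 2 and 3, against 52.3, 1120 and 167 CPM in WT replicates 1, 2 and 3. Among the other marker lists, 1 of 5 progenitor and fibroblast genes rose and 1 of 6 brown adipocyte genes fell, with none called of 5 endothelial, 4 T cell or 1 tested mammary epithelial gene, and Krt14 and Csn3 were at 0 in every library. Of all tested genes, 2.65% fell and 4.76% rose (edgeR, adjusted p under 0.05, as below). The part of adipocyte and macrophage transcripts in the values that follow was not tested. In whole tissue, fewer cells of a type and less RNA per cell cannot be told apart.

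Of the 39 import genes, 5 fell in knockout fat and none rose by edgeR's quasi-likelihood test (Benjamini-Hochberg adjusted p under 0.05, adjusted across the 14065 genes tested). Without adjustment (p under 0.05), 15 stood lower and 2 higher, against 12.7% lower and 14.9% higher of all tested genes. DESeq2 called 9 lower and none higher, against 894 lower and 1074 higher of all tested genes. The 5 are Timm50, Samm50, Timm8b, Dnajc15 and Immp2l, which belong to 5 different complexes and were 28.2% to 35.5% lower in the knockout. On GRCm38 these genes lie at chr7:28305516-28312072 (Timm50, minus strand), chr15:84192241-84217267 (Samm50, plus), chr9:50603910-50605320 (Timm8b, plus), chr14:77820681-77875125 (Dnajc15, minus) and chr12:41024090-41955588 (Immp2l, plus). Among all tested genes, 7.41% were called, 2.65% lower and 4.76% higher. The median log2 fold change over the 39 was -0.26, against 0.0052 over all tested genes, and 29 of the 39 lay below 0, against 49.5% of all tested genes. Knockout and WT libraries did not overlap in 17 import genes, with the knockout lower in 15 (38.5%) and higher in 2, against 15.5% lower and 17.8% higher of all tested genes. By edgeR, none of the 39 was called without any 1 of knockout replicates 1, 2 or 3 or WT replicates 1 or 2 (12 to 16 lower and 0 to 2 higher at an unadjusted p under 0.05). Over all tested genes, those fits called 5 lower and 41 higher without knockout replicate 1. They called 1 lower and 1 higher without knockout replicate 2, and 2 lower and 1 higher without knockout replicate 3. Without WT replicate 1 they called 263 lower and 538 higher, and without WT replicate 2, 1 lower and 0 higher. Without WT replicate 3, 15 of the 39 were called lower, against 1167 lower and 1434 higher of all tested genes. None of the 39 was called without knockout replicate 3 and WT replicate 2, the libraries highest in muscle transcripts, where 6 were lower and 3 higher at an unadjusted p under 0.05 and the median was -0.14. Without knockout replicate 3 alone the median was -0.17. For fits with libraries left out, the share of all tested genes at an unadjusted p under 0.05 was not taken.

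**Figure D1:**
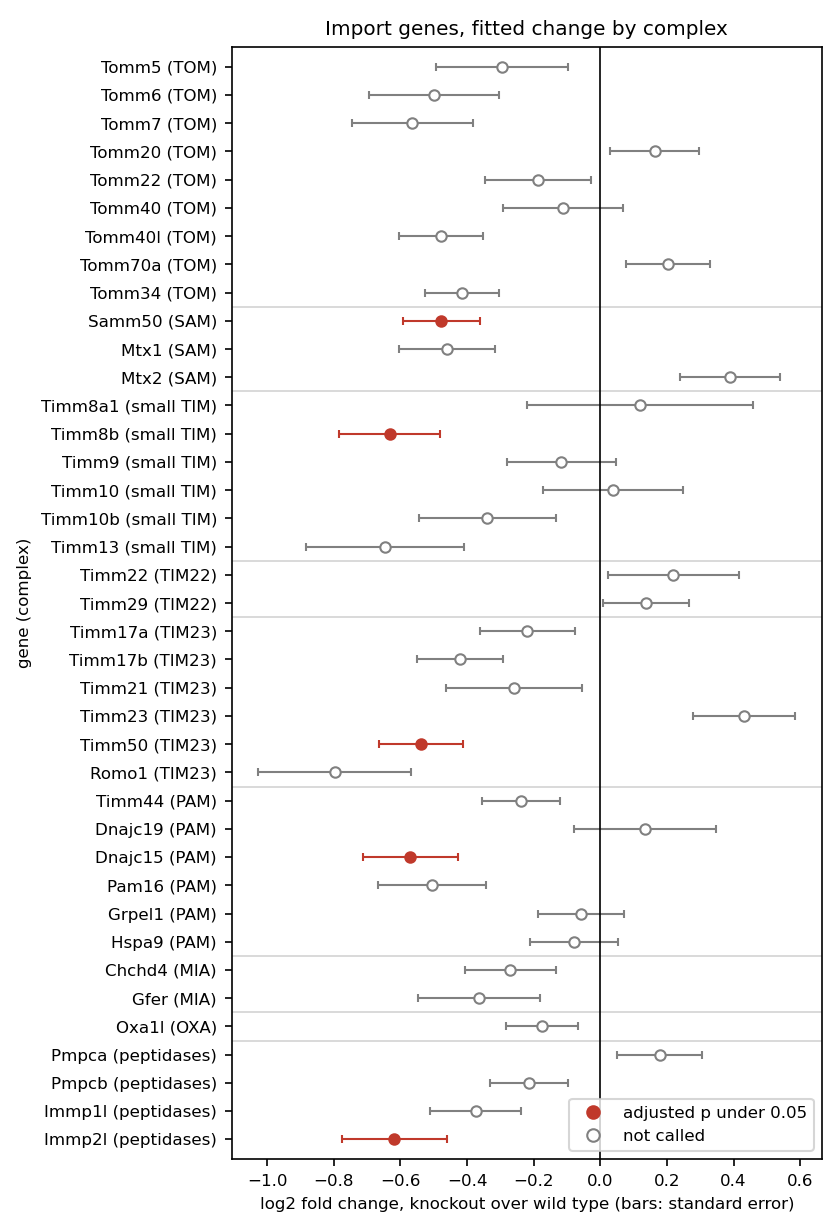
Fitted log2 fold change, knockout over WT, of the 39 import genes grouped by complex, with bars for the standard error (n = 3 libraries per genotype). Filled points mark the 5 genes with an adjusted p under 0.05, all below 0, while Mtx2 and Timm23 lie farthest above 0.

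By complex, the median log2 fold change was -0.30 over 9 TOM genes, -0.46 over 3 SAM genes, -0.23 over 6 small TIM genes and 0.18 over 2 TIM22 genes. It was -0.34 over 6 TIM23 genes, -0.16 over 6 PAM genes, -0.32 over 2 MIA genes, -0.17 for Oxa1l alone and -0.29 over 4 peptidase genes. TIM22 was thus the only one of the 9 groups with a median above 0. No difference between complexes was tested, and the medians of small groups rest on 1 to 4 genes. The TOM group and its median take in Tomm34, a cytosolic cochaperone and not a subunit. Without knockout replicate 3 and WT replicate 2 the TOM median was -0.083, the small TIM median -0.066 and the PAM median -0.089, while the TIM23 median was -0.35, the MIA median -0.14, the peptidase median -0.18 and the TIM22 median 0.28. Single libraries also moved several medians by over 1.5 times. Without knockout replicate 3 they were -0.12 for TOM, -0.098 for small TIM, -0.10 for PAM and -0.21 for MIA, and without knockout replicate 2 they were -0.45 for TOM and -0.35 for small TIM. Small TIM stood at -0.098 without WT replicate 1 and -0.37 without WT replicate 3, and TIM22 at 0.094 without knockout replicate 1. When each library's trend on transcript length and GC content was taken out, the TOM median was -0.17, the SAM median -0.22 and the TIM22 median 0.085.

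The libraries of 1 genotype did not lie together. Summed over the 39 genes, import transcripts stood at 3014, 3182 and 2493 CPM in knockout replicates 1, 2 and 3, against 3601, 3722 and 3202 CPM in WT replicates 1, 2 and 3. Every knockout sum was thus below every WT sum, by a narrow margin between knockout replicate 2 and WT replicate 3. Knockout replicate 3 had the lowest level of all 6 libraries in 27 of the 39 genes and the lowest of the knockout libraries in 36. Among WT libraries, replicate 3 was lowest in 23 genes. As a mean over the 39 genes of the log2 CPM relative to the WT mean, the libraries stood at -0.14, -0.095 and -0.45 in the knockout and 0.049, 0.083 and -0.13 in WT, so that knockout replicates 1 and 2 were close to WT replicate 3.

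**Figure D2:**
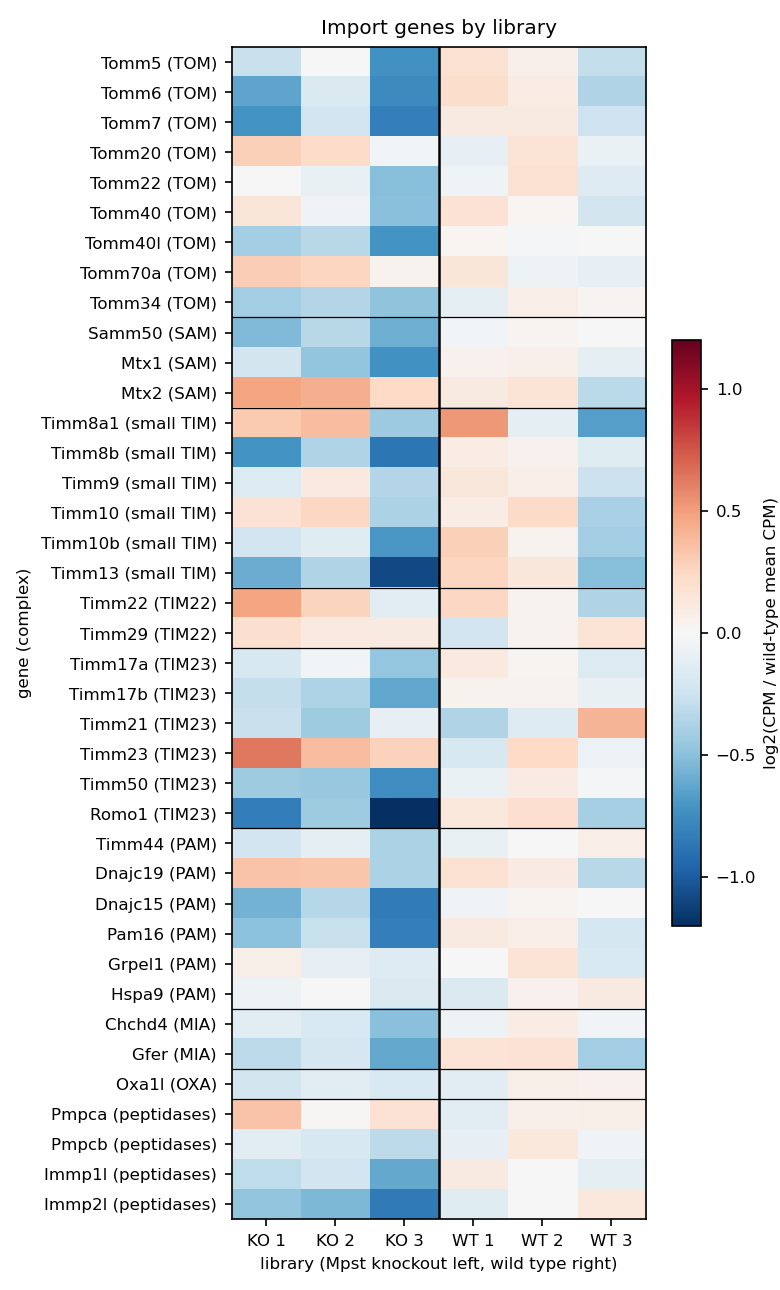
Level of each of the 39 import genes in each library as log2 of CPM over the WT mean CPM, with knockout libraries on the left, WT libraries on the right and horizontal lines between complexes. Knockout replicate 3 is the lowest of the 6 libraries in 27 genes, and Mtx2 and Timm23 are higher in all 3 knockout libraries than in any WT library.

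At the outer membrane, none of the 9 TOM genes passed edgeR's test. At an unadjusted p under 0.05, 4 were lower, against 12.7% of all tested genes. The 9 include Tomm34, which is not a subunit of the complex. Tomm40l, a paralog of the channel subunit, had the smallest p in the complex, with 55.2, 58.2 and 44.6 CPM in knockout libraries against 74.5, 72.0 and 73.5 CPM in WT libraries. The groups did not overlap (log2 fold change -0.48, SE 0.13, adjusted p = 0.0546), but 3304 exon bases of Tomm40l are shared with Nr1i3 on the other strand and the libraries do not mark strand, so the count is uncertain. Tomm34, a cytosolic cochaperone that binds Hsp70 and Hsp90, had 57.0, 59.9 and 54.7 CPM in knockout libraries against 70.2, 80.4 and 78.0 CPM in WT libraries (log2 fold change -0.41, SE 0.11, adjusted p = 0.0549). Here too every knockout library was below every WT library. Both genes were called with DESeq2 and without WT replicate 3.

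The channel itself, Tomm40, differed by less than the spread between replicates, at 84.1 ± 18.4 CPM in knockout and 90.7 ± 12.5 CPM in WT libraries (SD, n = 3 each). The small subunits Tomm5, Tomm6 and Tomm7, which stabilise the complex, had log2 fold changes of -0.30, -0.50 and -0.56 (adjusted p = 0.369, 0.140 and 0.0870). The receptors went different ways without passing the test. Tomm22, the central receptor, had a log2 fold change of -0.19, whereas Tomm20, the receptor for presequences, stood at 0.16 and Tomm70a, the receptor for carrier precursors, at 0.20 (adjusted p = 0.479, 0.463 and 0.325). When each library's trend on transcript length and GC content was taken out, Tomm20 and Tomm70a turned to -0.062 and -0.15 and Tomm40 to 0.12, while Tomm5 stood at -0.079, Tomm6 at -0.17 and Tomm7 at -0.51.

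Samm50, the beta-barrel core of the sorting and assembly machinery, fell in the knockout. It had 106, 121 and 102 CPM in knockout libraries against 149, 156 and 153 CPM in WT libraries. All WT libraries lay close together and above all knockout libraries (log2 fold change -0.48, SE 0.12, adjusted p = 0.0438). Its partners on the cytosolic side of the outer membrane, the metaxins, differed in sign. Mtx1 had 61.0, 51.1 and 43.0 CPM in knockout libraries against 73.5, 73.9 and 65.4 CPM in WT libraries (log2 fold change -0.46, SE 0.14, adjusted p = 0.0838). Mtx2, which binds metaxin 1 on the membrane surface, had 76.5, 74.4 and 65.0 CPM in knockout libraries against 59.3, 61.5 and 44.0 CPM in WT libraries (log2 fold change 0.39, SE 0.15, adjusted p = 0.134). Exons of Mtx1 share 318 bases with Thbs3 on the other strand. Neither metaxin passed the test alone. Neither overlapped between genotypes, with Mtx1 lower and Mtx2 higher in the knockout. Of all tested genes, 15.5% did not overlap with the knockout lower and 17.8% with the knockout higher. With the length and GC trend taken out, Mtx1 stood at -0.22 and Mtx2 at 0.15 (adjusted p = 0.274 and 0.586).

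In the intermembrane space, Timm8b, a subunit of the small TIM chaperones, fell in the knockout. It had 45.3, 57.8 and 40.7 CPM in knockout libraries against 79.1, 77.0 and 67.3 CPM in WT libraries (log2 fold change -0.63, SE 0.15, adjusted p = 0.0413). Its exons share 81 bases with Nkapd1 on the other strand. Timm13, the usual partner of the TIM8 proteins, had 162, 189.8 and 115 CPM in knockout libraries against 292, 268 and 171 CPM in WT libraries. Its groups overlapped, because WT replicate 3 lay below knockout replicate 2 (log2 fold change -0.65, SE 0.24, adjusted p = 0.119). The other chaperone pair, Timm9 and Timm10, had log2 fold changes of -0.12 and 0.039 (adjusted p = 0.683 and 0.926), with overlapping libraries. Timm10b, which docks the chaperones on TIM22, stood at -0.34 (adjusted p = 0.317). Timm8a1, the paralog of Timm8b, had the lowest level of the 39 per kilobase of exon in both genotypes, 4.05 CPM per kilobase in knockout and 3.72 in WT libraries, and overlapped between them (log2 fold change 0.12, SE 0.34, adjusted p = 0.853).

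The disulfide relay holds Chchd4, the oxidoreductase that folds incoming proteins, and Gfer, the sulfhydryl oxidase that reoxidises it. Gfer had 52.7, 57.2 and 43.0 CPM in knockout libraries against 73.7, 74.0 and 49.1 CPM in WT libraries, with WT replicate 3 inside the knockout range (log2 fold change -0.36, SE 0.18, adjusted p = 0.230). Chchd4 had 26.2, 25.5 and 20.4 CPM in knockout libraries against 27.7, 30.8 and 28.2 CPM in WT libraries, which did not overlap (log2 fold change -0.27, adjusted p = 0.234). Of 18 tested substrates of the relay and related small cysteine-rich proteins, 2 fell and 1 rose, against 2.65% and 4.76% of all tested genes. Their median log2 fold change was -0.39, and 15 of the 18 lay below 0, against 49.5% of all tested genes. Ndufs5, the remaining gene of the relay list, had 0 counts in every library. Chchd7, a cysteine-rich factor linked to cytochrome oxidase, had 20.1, 22.5 and 17.9 CPM in knockout libraries against 32.9, 32.0 and 34.0 CPM in WT libraries (log2 fold change -0.71, SE 0.13, adjusted p = 0.0220). Chchd1, a mitochondrial ribosome subunit, also fell, with 47.9, 63.8 and 41.6 CPM in knockout libraries against 91.3, 83.1 and 75.6 CPM in WT libraries (log2 fold change -0.70, SE 0.17, adjusted p = 0.0415). Chchd10, a cysteine-rich intermembrane-space protein, went the other way, with 96.7, 121 and 77.9 CPM in knockout libraries against 65.2, 56.8 and 58.3 CPM in WT libraries (log2 fold change 0.71, SE 0.16, adjusted p = 0.0380).

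At the inner membrane, Timm50, the receptor that hands presequence proteins from TOM to TIM23, fell and had the smallest p of the 39. It had 82.6, 80.9 and 66.2 CPM in knockout libraries against 105, 119 and 109 CPM in WT libraries (log2 fold change -0.54, SE 0.13, adjusted p = 0.0398). Romo1, a small subunit of the TIM23 complex, had the lowest log2 fold change of the 39 and was given after its values were seen. Its libraries held 114, 151 and 85.0 CPM in the knockout against 222, 233 and 154 CPM in WT. Knockout replicate 2 came close to WT replicate 3 without overlap, and Romo1 did not pass (log2 fold change -0.80, SE 0.23, adjusted p = 0.0666). Exons of Romo1 share 148 bases with Nfs1 on the other strand, so its count is uncertain.

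Timm23, the channel subunit of the same complex, was among the 10 import genes above 0 and was likewise given after its values were seen. Its libraries held 46.1, 38.3 and 36.0 CPM in the knockout against 25.9, 35.0 and 28.2 CPM in WT, without overlap (log2 fold change 0.43, SE 0.15, adjusted p = 0.112). Timm17a and Timm17b, alternative partners of the channel, had log2 fold changes of -0.22 and -0.42 (adjusted p = 0.352 and 0.0788), and Timm21, which links TIM23 to TOM, -0.26 (adjusted p = 0.442). In the TIM22 complex, which inserts carriers, the channel Timm22 had 67.6, 58.3 and 44.1 CPM in knockout libraries against 57.7, 50.1 and 37.9 CPM in WT libraries. These overlapped (log2 fold change 0.22, SE 0.20, adjusted p = 0.505), as did those of its subunit Timm29 (log2 fold change 0.14, adjusted p = 0.531).

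**Figure D3:**
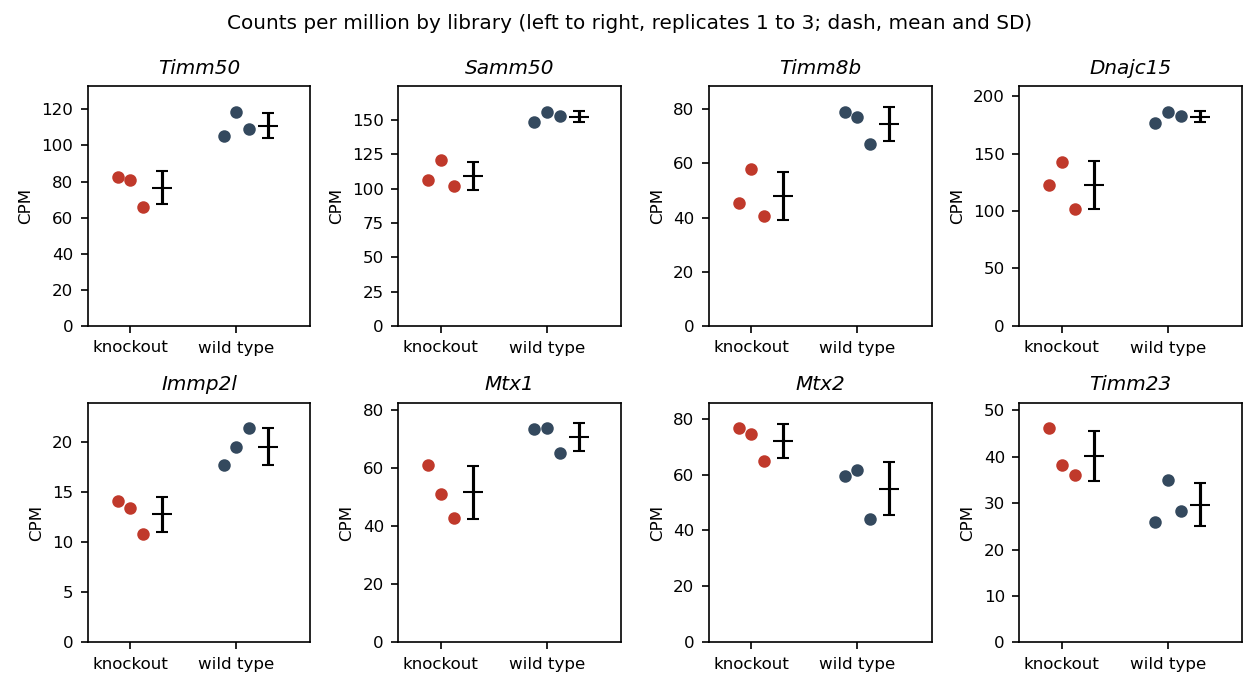
CPM in each library of the 5 called import genes and of Mtx1, Mtx2 and Timm23, knockout left of WT, with the mean and SD over 3 libraries. In each panel the groups do not overlap, and in Mtx2 and Timm23 the knockout is the higher one.

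In the PAM motor, Dnajc15, a J-domain protein that stimulates the matrix Hsp70, fell in the knockout. It had 123, 143 and 102 CPM in knockout libraries against 177, 186 and 182 CPM in WT libraries (log2 fold change -0.57, SE 0.14, adjusted p = 0.0465). Its paralog Dnajc19 stood at 56.4 ± 14.7 CPM in knockout and 51.4 ± 9.34 CPM in WT libraries (SD, n = 3 each), within the spread (log2 fold change 0.13, adjusted p = 0.726). Hspa9, the Hsp70 motor mortalin, had 386, 401 and 357 CPM in knockout libraries against 358, 418 and 433 CPM in WT libraries, the highest CPM of the 39 genes (log2 fold change -0.080, SE 0.13, adjusted p = 0.735). Its nucleotide exchange factor Grpel1 stood at -0.058 (adjusted p = 0.808) and Timm44, the anchor of the motor, at -0.24 (adjusted p = 0.223). Pam16, which holds back the J-proteins, did not overlap between groups but did not pass (log2 fold change -0.51, SE 0.16, adjusted p = 0.0863), and stood at -0.076 (adjusted p = 0.694) with the length and GC trend taken out. Exons of Pam16 share 455 bases with Glis2 on the other strand. The genes of the motor thus ranged from -0.57 to 0.13.

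Among the peptidases, Immp2l, a catalytic subunit of the inner membrane peptidase, fell in the knockout. It had 14.1, 13.4 and 10.8 CPM in knockout libraries against 17.7, 19.5 and 21.4 CPM in WT libraries (log2 fold change -0.62, SE 0.16, adjusted p = 0.0486). Immp1l, the other catalytic subunit, had a log2 fold change of -0.37 (SE 0.14, adjusted p = 0.117) and did not overlap between groups. The subunits of the matrix processing peptidase differed in sign, at 0.18 for Pmpca and -0.21 for Pmpcb (adjusted p = 0.399 and 0.268). Oxa1l, the inner membrane insertase, had 57.5, 61.1 and 58.8 CPM in knockout libraries against 61.0, 70.0 and 69.2 CPM in WT libraries. One WT library lay within the knockout range (log2 fold change -0.17, SE 0.11, adjusted p = 0.332).

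Ratios of paired genes within a library do not depend on library scaling, and 8 pairs of paralogs or partner subunits were set side by side. In 5 pairs the log2 count ratio did not overlap between genotypes (exact two-sided permutation p = 0.10 each, the smallest that 3 against 3 libraries allow, adjusted p = 0.160 over the 8 pairs). The share of other gene pairs whose ratios do not overlap was not taken. Of single tested genes, 15.5% did not overlap with the knockout lower and 17.8% with the knockout higher. Among the 8 pairs, the difference in ratio was largest for Mtx1 over Mtx2, at -0.33, -0.54 and -0.60 in knockout libraries against 0.31, 0.26 and 0.57 in WT libraries. Mtx1 thus had the fewer counts of the pair in every knockout library and the more in every WT library. Dnajc15 over Dnajc19 stood at 0.91, 1.15 and 1.36 in knockout libraries against 1.60, 1.76 and 2.16 in WT libraries. Tomm40l over Tomm40 averaged -0.66 ± 0.18 in knockout and -0.30 ± 0.20 in WT libraries (SD, n = 3 each). Pmpca over Pmpcb averaged -1.14 ± 0.16 in knockout and -1.53 ± 0.09 in WT libraries, and Timm17a over Timm17b 2.05 ± 0.13 in knockout and 1.86 ± 0.07 in WT libraries. Exons of Pmpca share 874 bases with Inpp5e on the other strand, and exons of Dnajc19 share 178 bases with Fxr1, so these counts too are uncertain. The pairs Timm8a1 and Timm8b, Immp1l and Immp2l, and Grpel1 and Grpel2 overlapped (exact permutation p = 0.20, 0.30 and 0.50). With each library left out, the Mtx1 over Mtx2 difference ranged from -0.95 to -0.77 and that of Dnajc15 over Dnajc19 from -0.82 to -0.54. These ratios are not corrected for transcript length or GC content. With that trend taken out, the log2 fold changes were -0.22 for Mtx1 and 0.15 for Mtx2, and -0.82 for Dnajc15 and -0.19 for Dnajc19. For Timm17a and Timm17b they were -0.49 and -0.46, so Timm17a no longer fell less than Timm17b. For Pmpca and Pmpcb they were 0.043 and -0.20, and for Tomm40l and Tomm40 -0.56 and 0.12.

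**Figure D4:**
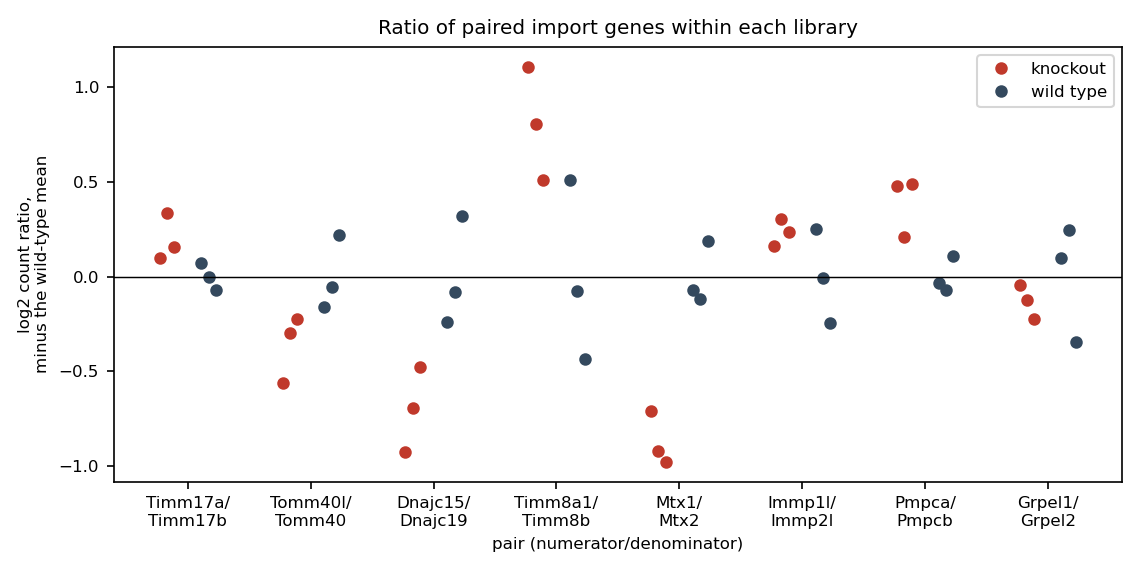
Log2 ratio of counts of 2 paired genes in each library, minus the WT mean of that pair, knockout left of WT. The Mtx1 over Mtx2 ratios of the 3 knockout libraries lie below those of the 3 WT libraries with the widest gap of the pairs shown.

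Per kilobase of exon, Romo1 stood highest, at 156 CPM per kilobase in knockout and 272 in WT libraries, followed by Tomm7, Timm13, Timm8b and Hspa9 in the knockout and by Timm13, Tomm7, Timm8b and Hspa9 in WT. Of the 13 import genes with the shortest transcripts (518 to 1515 bases) the median log2 fold change was -0.51, over the middle 13 it was -0.21 and over the 13 longest (2950 to 7280 bases) it was -0.080. Across the 39 genes the fold change had a Spearman rho of 0.40 with transcript length and -0.36 with GC content. Across 13933 tested genes with a value rho was 0.30 and -0.32, so a relation of the same sign was seen over the tested genes. These are descriptions across genes of the same 6 libraries. When each library's trend on length and GC content was taken out, 272 of all tested genes were called lower and 301 higher. In that fit Samm50 (-0.55, adjusted p = 0.0440), Dnajc15 (-0.82, adjusted p = 0.0304) and Immp1l (-0.43, adjusted p = 0.0494) were called lower (3 of 39). Timm50 (-0.32, adjusted p = 0.119), Timm8b (-0.31, adjusted p = 0.124) and Immp2l (-0.55, adjusted p = 0.0790) were not, Romo1 stood at -0.31, and 31 of the 39 lay below 0 with a median of -0.22.

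**Figure D5:**
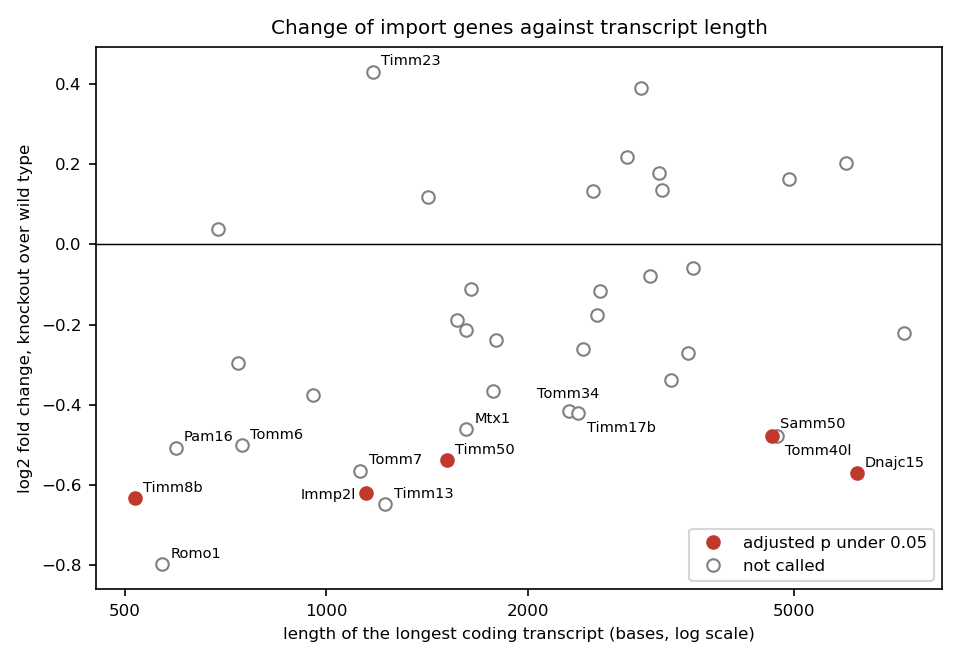
Fitted log2 fold change, knockout over WT, of the 39 import genes against the length of the longest coding transcript in bases on a log axis. Of the 5 called genes, Timm8b, Immp2l and Timm50 lie among the 13 shortest transcripts, and Samm50 and Dnajc15 among the 13 longest.

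The promoters of import genes are known targets of NRF1, of the ETS factor GABP (NRF-2), of YY1 and of estrogen-related receptors, which act on nuclear genes for mitochondrial proteins. Windows of 300 bases, 250 before and 50 after the start, were found for 35 of the 39 genes and searched on both strands. The ETS motif CCGGAAG was present in 14 of the 35 (40.0%), against 9.93% of 27025 genes with a window and 19.0% of the 11038 tested ones. The NRF1 motif (GCGC, any base, TGCGC) was present in 6 (17.1%, against 5.19% of all and 10.9% of tested genes). The YY1 motif AAGATGGCG was present in 4 (11.4%, against 1.64% and 3.28%) and the estrogen-related receptor half-site AAGGTCA in 3 (8.57%, against 5.38% and 4.01%). A match is a description and not a bound site.

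Of the 5 called genes, Timm8b held an ETS, an NRF1 and an AAGGTCA match and Timm50 a YY1 match, while the windows of Samm50, Dnajc15 and Immp2l held none of the 4 motifs. Mtx1 and Mtx2, whose fold changes differed in sign without passing the test, both held the ETS motif, and Mtx1 a YY1 match as well. Romo1 held ETS matches and an NRF1 match on the other strand. The windows of Timm50, Timm8b, Romo1, Mtx1 and Mtx2 are given from RefSeq on GRCm38.p6, 5′ to 3′ on the gene's strand. Romo1 has the lowest fold change, and the windows of Samm50, Dnajc15 and Immp2l are not shown. Capitals mark the motif matches, and on the other strand an ETS match reads CTTCCGG and an NRF1 match GCGCA, any base, GCGC.
Timm50, chr7:28311997-28312296 (minus strand): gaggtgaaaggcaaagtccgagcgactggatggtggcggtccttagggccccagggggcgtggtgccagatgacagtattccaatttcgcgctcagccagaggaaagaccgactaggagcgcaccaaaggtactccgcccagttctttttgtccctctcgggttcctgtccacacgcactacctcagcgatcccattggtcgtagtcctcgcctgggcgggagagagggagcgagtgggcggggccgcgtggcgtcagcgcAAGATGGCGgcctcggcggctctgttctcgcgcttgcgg
Timm8b, chr9:50603651-50603950 (plus strand): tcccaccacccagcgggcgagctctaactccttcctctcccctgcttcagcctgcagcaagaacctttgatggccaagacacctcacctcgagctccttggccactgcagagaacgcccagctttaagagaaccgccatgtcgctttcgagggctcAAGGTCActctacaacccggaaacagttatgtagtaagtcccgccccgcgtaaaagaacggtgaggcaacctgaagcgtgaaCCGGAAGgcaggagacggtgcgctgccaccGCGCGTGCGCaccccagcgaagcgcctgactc
Romo1, chr2:156143983-156144282 (plus strand): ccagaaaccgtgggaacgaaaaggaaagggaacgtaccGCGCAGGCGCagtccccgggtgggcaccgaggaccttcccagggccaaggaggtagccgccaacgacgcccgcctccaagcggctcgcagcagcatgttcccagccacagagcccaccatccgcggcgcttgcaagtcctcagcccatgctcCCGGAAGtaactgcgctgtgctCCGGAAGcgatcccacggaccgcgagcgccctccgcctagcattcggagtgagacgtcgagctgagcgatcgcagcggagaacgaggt
Mtx1, chr3:89213858-89214157 (minus strand): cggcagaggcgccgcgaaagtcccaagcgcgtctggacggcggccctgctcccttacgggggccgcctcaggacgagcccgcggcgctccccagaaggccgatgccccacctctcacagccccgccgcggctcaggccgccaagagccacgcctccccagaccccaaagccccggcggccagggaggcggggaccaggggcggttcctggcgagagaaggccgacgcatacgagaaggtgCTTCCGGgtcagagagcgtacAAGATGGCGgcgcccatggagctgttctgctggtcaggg
Mtx2, chr2:74825562-74825861 (plus strand): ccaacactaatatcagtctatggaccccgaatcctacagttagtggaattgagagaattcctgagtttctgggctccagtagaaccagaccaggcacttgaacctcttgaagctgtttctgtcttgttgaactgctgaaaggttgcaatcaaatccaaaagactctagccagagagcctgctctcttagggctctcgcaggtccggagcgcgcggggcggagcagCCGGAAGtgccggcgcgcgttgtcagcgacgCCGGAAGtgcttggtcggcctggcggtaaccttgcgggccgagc

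Further genes that assist import were listed beside the 39. Of 17 other import factors, Dnlz, a zinc-finger protein that keeps Hspa9 soluble, fell, and none rose. It had 52.8, 54.1 and 45.3 CPM in knockout libraries against 81.5, 81.8 and 62.2 CPM in WT libraries (log2 fold change -0.57, SE 0.14, adjusted p = 0.0474). The median over the 17 was -0.068, with 10 below 0. Of 5 tested genes of the MICOS complex, which shapes the cristae and touches the sorting machinery, Chchd6 fell, with 60.5, 73.3 and 53.0 CPM in knockout libraries against 101, 109 and 98.9 CPM in WT libraries (log2 fold change -0.73, SE 0.14, adjusted p = 0.0259). Their median was -0.11. Of all tested genes, 2.65% fell. Of the 5 called genes on these lists and that of relay substrates, all 5 were called without WT replicate 3, Chchd6 and Chchd7 without WT replicate 1, and none without WT replicate 2 or any 1 knockout library. With the length and GC trend taken out, Chchd10 (0.93, adjusted p = 0.0199) was called, while Dnlz (-0.57), Chchd6 (-0.43), Chchd7 (-0.38) and Chchd1 (-0.44) were not. None of 9 cytosolic chaperones that deliver precursors was called by edgeR. At an unadjusted p under 0.05, 2 of the 9 were lower, against 12.7% of all tested genes, and the median over the 9 was -0.11.

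Set beside other mitochondrial groups in the same fit, 5 of 39 import genes fell (12.8%), against 12 of 36 complex I subunits (33.3%), 4 of 78 mitochondrial ribosomal protein genes (5.13%) and 2 of 15 mitochondrial proteases and chaperones (13.3%, with 1 higher). The complex I list was taken by symbol pattern and includes Ndufa4l2 and the processed pseudogene Ndufb4c, so not all its genes need be subunits. The medians were -0.26 over import genes, -0.55 over complex I subunits, -0.37 over ribosomal protein genes and -0.078 over proteases and chaperones. The share of genes below 0 was 74.4% for import, 97.2% for complex I, 94.9% for the ribosomal proteins and 53.3% for the proteases and chaperones. Over all tested genes, 2.65% fell, 4.76% rose and 49.5% lay below 0. No difference between these mitochondrial groups was tested.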

How the data were processed

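TRIzol-extracted RNA went into TruSeq RNA v2 libraries, which do not mark strand, and NextSeq500 single-end reads of 75 bases, per the labels' protocols. Tools listed by the submitters' processing notes are HISAT2 2.1.0, HTSeq 0.13.5, DESeq2 1.26 and build mm10. No source used here gives the annotation or the counter's settings. The authors deposited raw counts per gene symbol for 24984 genes, 1 file per sample, and 5 summary lines per file were left out. Reads counted to no gene made up 8.85% to 14.7% of uniquely placed reads and ambiguous reads 1.63% to 1.83%. Depth was 8054560 to 22458630 counts per library. No 2 replicates of a genotype were alike within counting noise (median ratio of observed to counting variance 3.27 to 23.1).

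The test was run with edgeR 4.0.16 in R 4.3.3: filterByExpr (14065 genes kept), trimmed mean of M-values scaling, and a robust quasi-likelihood F test of knockout over wild type, without covariates. Standard errors were taken as the absolute log2 fold change over the root of F. CPM uses the scaled library size. The code was run on simulated counts with known changes as a check. The changes planted in single genes were larger than those of the called import genes, so changes of that size were not checked. The genes, lists, complexes and alternatives were chosen with earlier results of these data known, so no test over a list is given and none of the lists is independent support. Values in every library are given for Mpst, for called import genes and the gene with the smallest p in each complex, and for the called genes (up to 4, else the 1 with the smallest p) of each pathway list, and the genes of the 8 pairs are named. One result under this rule is not reported here. Values of Romo1, Timm23 and any other gene were picked with their values in view. The symbols Minos1 and 2410015M20Rik of the MICOS list were not matched. Exon positions and transcript lengths came from GENCODE M21 on GRCm38, the assembly of mm10, promoter windows from RefSeq. In 15 of the 39 genes, exons of another listed gene lie on the other strand, and counts there are uncertain. Alternatives were other scalings, DESeq2 1.42.0, limma 3.58.1 (voom), other filters, no robust prior, a block for replicate number, leaving out each library in turn, and the 2 libraries highest in muscle transcripts left out. The fit with each library's trend on transcript length and GC content taken out was added after seeing the data.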

Additional observations from a re-analysis of the deposited data

How the results depend on the processing

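With 3 libraries per genotype, calls depended on single libraries more than on scaling, filter or test. The count of import genes called lower, 5, was 9 with DESeq2, 3 with the trend on transcript length and GC content taken out, 0 without the 2 libraries highest in muscle markers, and 0 to 15 with each library left out, where the 15 came without WT replicate 3 and 0 without each of the others. No import gene was called higher except Mtx2 (log2 fold change 0.40) with the replicate block. Over all tested genes, higher and lower calls were 1074 and 894 with DESeq2, 0 and 1 without the libraries highest in muscle markers, and 0 to 1434 and 1 to 1167 with each library left out. With the trend taken out there were 301 higher and 272 lower calls. Whether the replicate numbers pair the samples was not settled, as correlations among so few libraries cannot decide it. Same-numbered deviations correlated at 0.17, -0.099 and 0.30 for replicates 1, 2 and 3. Knockout replicates 1 and 3 correlated best with the WT library of the same number, but knockout replicate 2 with WT replicate 1 (0.36). With the replicate block, 16 import genes were called lower and 1 higher, against 1289 and 1387 of all genes. Without the libraries highest in muscle markers, the median was -0.083 for TOM, -0.31 for SAM and -0.18 for the peptidases. With the trend taken out it was -0.22 for SAM. Signs turned only in genes that were not called: without 1 library, in Timm10 (-0.12 to 0.22), Timm8a1 (-0.13 to 0.48), Tomm40 (-0.25 to 0.051), Grpel1 (-0.14 to 0.030), Timm21 (-0.40 to 0.0036) and Dnajc19 (-0.0057 to 0.34). Without the libraries highest in muscle markers they turned in Tomm22 (0.050), Tomm40 (0.061), Timm9 (0.032) and Grpel1 (0.076). With the trend taken out they turned in Tomm20 (-0.062), Tomm40 (0.12), Tomm70a (-0.15) and Dnajc19 (-0.19). The cause of these shifts was not tested. Precision is lowest in knockout replicate 1, which has the fewest counts.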
